A study of Mus musculus with 6 samples.

Results

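The genes examined here carry the glial cell line-derived neurotrophic factor (GDNF) signal in the testis: the ligand *Gdnf*, its receptors *Gfra1* and *Ret*, and 7 transcription regulators linked to the signal in spermatogonia, *Etv5*, *Bcl6b*, *Lhx1*, *Pou3f1*, *Id4*, *T* and *Eomes*. They were chosen by gene symbol, and all 10 were found among the 54532 genes of the expression table. Of these, 9 averaged 0.5 FPKM or more over all samples (FPKM are reads scaled to gene length and library size) and were tested, while *Eomes* lay below this filter.

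RNA sequencing of polyadenylated RNA was carried out on whole mouse testes taken 5 days postpartum (dpp), with 3 control (Ctrl) and 3 *Srsf1* conditional knockout (cKO) samples. SRSF1 is a splicing factor, and the comparison asked which transcripts differ in level between these groups. The cKO mice were *Vasa*-Cre *Srsf1* Fl/del animals, in which the germ-cell promoter of *Vasa* (*Ddx4*) drives the recombinase against a floxed allele and the other allele is already deleted. Somatic cells of these mice carry the already deleted allele too. Its effect there cannot be told apart from that of the loss in germ cells. The genotype of the Ctrl mice beyond their label, the strain and the number of animals per sample are not given in the sources used here. In whole testes, fewer cells of a type and less RNA per cell cannot be told apart.

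GDNF is made by somatic cells of the seminiferous cords, chiefly Sertoli cells and peritubular myoid cells. It binds the membrane-anchored co-receptor GFRA1, and this pair engages the receptor tyrosine kinase RET on undifferentiated spermatogonia. RET then signals through the MAPK, PI3K-AKT and SRC-family kinases. In cultured spermatogonia the signal maintains *Etv5*, *Bcl6b*, *Lhx1*, *Pou3f1*, *Id4* and *T*, and in the testis it sustains stem cell self-renewal. Several of these genes are also used outside germ cells: *Etv5* in Sertoli cells, *Bcl6b* in endothelium, *Ret* and *Id4* in the nervous system, and *Eomes* in lymphocytes.

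Promoter sequences are shown for the ligand, the co-receptor and *T*, because these 3 genes differ in direction or size between the groups as described below. They were taken from RefSeq (GRCm38.p6), which held an entry for 7 of the 10 genes and none for *Ret*, *Bcl6b* or *Pou3f1*. Each is written 5′ to 3′ on the strand of the gene and leaves out annotated exons, and capitals mark the E-box letters CANNTG.
*Gdnf*, chr15:7809798-7810047, plus strand: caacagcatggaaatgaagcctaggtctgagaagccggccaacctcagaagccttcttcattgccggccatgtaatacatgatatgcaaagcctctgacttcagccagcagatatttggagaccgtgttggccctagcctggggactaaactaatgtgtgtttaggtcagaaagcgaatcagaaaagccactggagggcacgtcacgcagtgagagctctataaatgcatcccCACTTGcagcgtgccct
*Gfra1*, chr19:58455399-58455460, minus strand: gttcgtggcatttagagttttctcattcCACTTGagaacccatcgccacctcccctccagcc
*T*, chr17:8434173-8434422, plus strand: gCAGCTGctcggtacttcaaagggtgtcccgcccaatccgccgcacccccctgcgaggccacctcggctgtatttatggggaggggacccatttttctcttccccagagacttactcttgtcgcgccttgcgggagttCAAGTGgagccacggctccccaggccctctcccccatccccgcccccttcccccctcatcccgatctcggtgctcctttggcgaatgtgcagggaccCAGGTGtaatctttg
The *Gdnf* window, 1 of 2 in the RefSeq table for this gene, held 1 E-box, with its first base at -17 from the RefSeq start. The *T* window held 3 E-boxes, at -249, -112 and -15. The full 250-base window of *Gfra1* held E-boxes at -90, -75 and -34, and of these the last lies in the stretch shown. This window lies inside the annotated gene, whose start is further upstream. The stretch shown ends after 62 bases at an annotated exon, and the E-boxes at -90 and -75 lie beyond that exon edge. Both strands were searched, and 66.2% of 32851 promoter windows of this length held at least 1 E-box. The ETS core CCGGAA, the kind of site read by ETV5, was found at -156 in the *Gfra1* window, also beyond that exon edge, and in 12.0% of all windows. *Etv5* had E-boxes at -224 and -207, and the *Lhx1*, *Id4* and *Eomes* windows held neither motif. In the *Etv5* and *Lhx1* windows an annotated exon reaches the RefSeq start, so no stretch free of exons adjoins it. These matches describe letters in a window and are not binding data.

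The targeted gene was examined first. *Srsf1* stood at 82.1, 89.1 and 88.4 FPKM in Ctrl testes and at 45.1, 46.3 and 51.6 FPKM in cKO testes, and no cKO value reached the lowest Ctrl value. Its mean in cKO testes was 55.1% of that in Ctrl, with an adjusted p of 0.0578 in limma. It passed the threshold of 0.05 with protein-coding genes only (limma adjusted p = 0.016), with voom on recovered reads (limma adjusted p = 0.0255) and with the replicate number as a block (limma adjusted p = 0.0326). Over all 14 alternatives its limma adjusted p ranged from 0.016 to 0.225. The whole-gene value includes exons outside the deleted exons and RNA of somatic cells. Recovered depth was between 15448191 and 18964743 reads per sample. Summed over 20 germ-cell markers, the level was 200.5, 479.4 and 207.7 FPKM in Ctrl testes and 54.5, 98.3 and 63.8 FPKM in cKO testes. The cKO mean of this sum was 24.4% of the Ctrl mean (exact permutation test over samples, two-sided p = 0.1, the smallest that 3 against 3 samples allow). Ctrl 2 stood apart, at 2.35 times the mean of the other Ctrl samples, and without it the share was 35.4%. Sertoli-cell markers summed to between 1800 and 2493 FPKM in Ctrl testes and between 2064 and 2401 FPKM in cKO testes. The extraction text of the labels names retinas, whereas all 20 germ-cell and all 12 Sertoli-cell markers were detected, 6 retinal markers summed to at most 0.746 FPKM and *Crx* and *Nrl* were at 0 in every sample.

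The ligand was higher and the receptors were lower in every cKO sample. *Gdnf* (ENSMUSG00000022144, chr15:7810846-7837575) stood at 8.95, 5.85 and 11.4 FPKM in Ctrl testes and at 13.0, 13.2 and 12.3 FPKM in cKO testes. The groups did not overlap, but the highest Ctrl sample lay close to the lowest cKO sample, and Ctrl 2 was the lowest of all. The means were 8.74 ± 2.80 and 12.9 ± 0.485 FPKM (SD, n = 3 each), which put cKO at 147.1% of Ctrl. On the log2(FPKM + 1) scale the difference was 0.55 (SE 0.202, 95% confidence interval 0.08 to 1.02), with an unadjusted limma p of 0.0285 and an adjusted p of 0.264, so it did not pass the threshold of 0.05. Without Ctrl 2 the cKO mean was 126% of Ctrl and the log2 difference 0.32. Ctrl 2 also had the lowest Sertoli-cell marker sum, at 0.733 of the mean of the other Ctrl samples, against 0.574 for *Gdnf* itself. Between the groups the Sertoli-cell sum in cKO testes was 100.2% of Ctrl and the sum of 6 peritubular myoid markers was 77.2% (exact permutation tests, two-sided p = 1 and p = 0.1). Single Sertoli-cell markers differed from that sum, with *Amh* at 164%, *Aard* at 75.4% and *Cldn11* at 49.5% of Ctrl. All of these 3 were without overlap between the groups, and the other Sertoli-cell markers overlapped. *Acta2* made up 455.9 of the mean 525.0 FPKM of the myoid sum in Ctrl testes. Without overlap, *Acta2* (76.8%) and *Myh11* (64.3%) were lower and *Des* (133%) was higher, while the other myoid markers overlapped. The part of these cells in the *Gdnf* difference was not tested.

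*Gfra1* (ENSMUSG00000025089, chr19:58235604-58455909), the GDNF co-receptor and a surface marker of undifferentiated spermatogonia, stood at 3.18, 4.48 and 3.20 FPKM in Ctrl testes and at 1.30, 2.57 and 1.62 FPKM in cKO testes. All cKO values lay under all Ctrl values, and replicate 2 was the highest in both groups. The cKO mean was 50.5% of Ctrl (3.62 ± 0.743 against 1.83 ± 0.660 FPKM). The log2 difference was -0.72 (SE 0.192, interval -1.17 to -0.27), with a limma adjusted p of 0.166.

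*Ret* (ENSMUSG00000030110, chr6:118151745-118197718), the signalling receptor, stood at 3.80, 5.96 and 3.87 FPKM in Ctrl testes and at 1.83, 3.06 and 1.51 FPKM in cKO testes. The groups were again separate, with replicate 2 the highest in each. The cKO mean was 47.0% of Ctrl (4.54 ± 1.23 against 2.14 ± 0.819 FPKM). The log2 difference was -0.83 (SE 0.22, interval -1.35 to -0.31), with a limma adjusted p of 0.166, so neither receptor passed the threshold. In this fit no gene passed it, *Srsf1* included. The study, which used DESeq2 on read counts, reported *Gfra1* as significantly reduced in cKO testes and as lower by RT-qPCR. Markers of Schwann and neural cells, in which *Ret* is also used, summed to between 19.1 and 19.7 FPKM in Ctrl testes and between 18.5 and 20.2 FPKM in cKO testes.

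The proportion between the receptors overlapped between the groups, while the ligand was higher relative to either receptor in every cKO sample. The FPKM ratio of *Ret* to *Gfra1* was 1.19, 1.33 and 1.21 in Ctrl and 1.41, 1.19 and 0.934 in cKO testes (exact permutation test, two-sided p = 0.7). The ratio of *Gdnf* to *Gfra1* was 2.81, 1.31 and 3.57 in Ctrl and 10.03, 5.15 and 7.60 in cKO testes, with no overlap between the groups. The ratio of *Gdnf* to *Ret* was 2.35, 0.982 and 2.96 in Ctrl and 7.12, 4.32 and 8.14 in cKO testes. For both of these ratios p = 0.1 in the exact permutation test, the smallest possible here. *Gdnf* was higher and both receptors were lower in every cKO sample, so this separation and its p were fixed by the single genes. The ratios to *Gdnf* therefore add no further evidence. Replicate 2 had the lowest ligand-to-receptor ratio in both groups, and it also had the highest germ-cell marker sum in both.

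**Figure D1:**
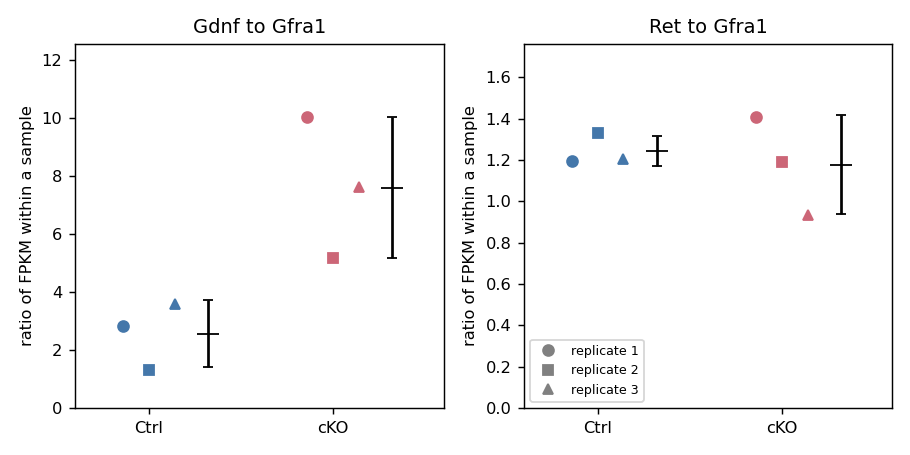
Ratio of FPKM values within each sample (y axis, no unit) for *Gdnf* to *Gfra1* (left) and *Ret* to *Gfra1* (right), by group; symbols are replicates, and the bar with whiskers is the mean with SD. All cKO samples lie above all Ctrl samples on the left (lowest cKO 5.15, highest Ctrl 3.57), which follows from the separation of each gene. The groups overlap on the right.

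Of the transcription regulators, *Etv5*, *Bcl6b* and *Pou3f1* were lower in every cKO sample, by unequal amounts. *Etv5* (ENSMUSG00000013089, chr16:22381309-22439719), an ETS factor needed for stem cell self-renewal, stood at 13.0, 11.4 and 12.2 FPKM in Ctrl testes and at 10.5, 10.1 and 10.2 FPKM in cKO testes. The replicates lay close together and the groups were separate. The cKO mean was 84.2% of Ctrl (12.2 ± 0.823 against 10.3 ± 0.235 FPKM), with a log2 difference of -0.23 (interval -0.42 to -0.03) and a limma adjusted p of 0.262. In contrast to the receptors, Ctrl 2 was the lowest Ctrl sample for *Etv5*.

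*Pou3f1* (ENSMUSG00000090125, chr4:124656807-124660655), a POU factor, stood at 2.44, 2.67 and 2.07 FPKM in Ctrl testes and at 0.974, 1.99 and 1.21 FPKM in cKO testes. The highest cKO sample lay just below the lowest Ctrl sample. The cKO mean was 58.2% of Ctrl, with a log2 difference of -0.52 (interval -0.93 to -0.11) and a limma adjusted p of 0.233. Its ratio to *Gfra1* was 0.767, 0.597 and 0.645 in Ctrl and 0.749, 0.775 and 0.748 in cKO testes (exact permutation test, two-sided p = 0.3). An antisense gene, *Gm2164*, overlaps *Pou3f1* by 363 bases and reached 0.565 FPKM, and the strand used in counting is not given in the sources used here.

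*Bcl6b* (ENSMUSG00000000317, chr11:70224128-70229798), a transcriptional repressor, stood at 4.34, 4.46 and 3.44 FPKM in Ctrl testes and at 2.31, 3.30 and 3.38 FPKM in cKO testes. The groups were separated by the narrowest margin of all, between Ctrl 3 and cKO 3. The cKO mean was 73.4% of Ctrl, with a log2 difference of -0.35 (interval -0.70 to -0.01) and a limma adjusted p of 0.309. Without cKO 1 the difference was -0.22. Markers of endothelium, where *Bcl6b* is also expressed, summed to between 53.1 and 62.4 FPKM in Ctrl testes. In cKO testes they summed to between 65.4 and 71.7 FPKM (exact permutation p = 0.1). *Cdh5* made up 29.3 of the mean 56.8 FPKM of this sum in Ctrl testes. Without overlap, *Pecam1* (137% of Ctrl) and *Tie1* (138%) were higher and *Erg* (49.6%) was lower, while the other markers overlapped. The part of endothelium in the *Bcl6b* difference was not tested.

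*Id4* and *Lhx1* overlapped between the groups. *Id4* (ENSMUSG00000021379, chr13:48261228-48266026), an inhibitor of basic helix-loop-helix factors that marks stem cells, stood at 3.40, 3.49 and 3.92 FPKM in Ctrl testes and at 1.83, 2.89 and 3.80 FPKM in cKO testes. Here cKO 3 was above Ctrl 1 and Ctrl 2, and the log2 difference of -0.29 had an interval from -0.74 to 0.15 (limma adjusted p = 0.486). It was -0.09 without cKO 1 and -0.47 without cKO 3. *Lhx1* (ENSMUSG00000018698, chr11:84518284-84525535), a LIM homeobox factor, stood at 1.67, 1.04 and 1.48 FPKM in Ctrl testes and at 0.515, 1.97 and 1.32 FPKM in cKO testes. The lowest and the highest of the 6 values were both cKO samples. The log2 difference was -0.13 (interval -0.72 to 0.47, limma adjusted p = 0.843), and without cKO 1 it turned to 0.14. *Lhx1* had only 33 to 134 reads per sample. For both genes the interval includes differences as large as that of *Pou3f1*.

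*T* (brachyury; ENSMUSG00000062327, chr17:8434423-8442496), a T-box factor of the primitive streak and notochord, had the largest difference of the 9 tested genes and was higher in every cKO sample. It stood at 0.267, 0.408 and 0.182 FPKM in Ctrl testes and at 1.67, 1.32 and 1.06 FPKM in cKO testes. The lowest cKO value was well above the highest Ctrl value, although both groups were low, with 10, 18 and 7 reads in Ctrl and 61, 51 and 38 reads in cKO samples. The summed 35 reads in Ctrl have a 95% exact Poisson interval of 24.4 to 48.7, and the 150 reads in cKO have one of 127 to 176, which cover counting error only. The cKO mean was 473% of Ctrl (0.286 ± 0.114 against 1.35 ± 0.307 FPKM), and 602% without Ctrl 2. On the log2(FPKM + 1) scale, which understates differences of low values, the difference was 0.87 (SE 0.152, interval 0.51 to 1.23), with a limma adjusted p of 0.101. Restricted to the 13204 protein-coding genes, the same fit gave *T* an adjusted p of 0.0275, past the threshold. In that fit 0.28% of genes were called higher and 1.33% lower. *T* reached the filter of 0.5 FPKM only through the cKO samples. Within 400 kb of *T* lay 18 other genes, of which 4 were tested, and none of these had an unadjusted limma p under 0.05.

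*Eomes* (ENSMUSG00000032446, chr9:118478212-118486132), a related T-box factor, stood at 0.0595, 0.190 and 0.232 FPKM in Ctrl testes and at 0.168, 0.576 and 0.234 FPKM in cKO testes. These ranges overlapped, and the cKO mean was carried by cKO 2, with 40 of the 66 cKO reads. It could be fitted only without the filter, with a log2 difference of 0.18 and a limma adjusted p of 0.691. The 5 lymphocyte markers summed to between 0.899 and 2.04 FPKM in Ctrl testes and between 1.03 and 1.85 FPKM in cKO testes. The antisense gene *Gm33460* overlaps *Eomes* by 574 bases and reached 0.725 FPKM.

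**Figure D2:**
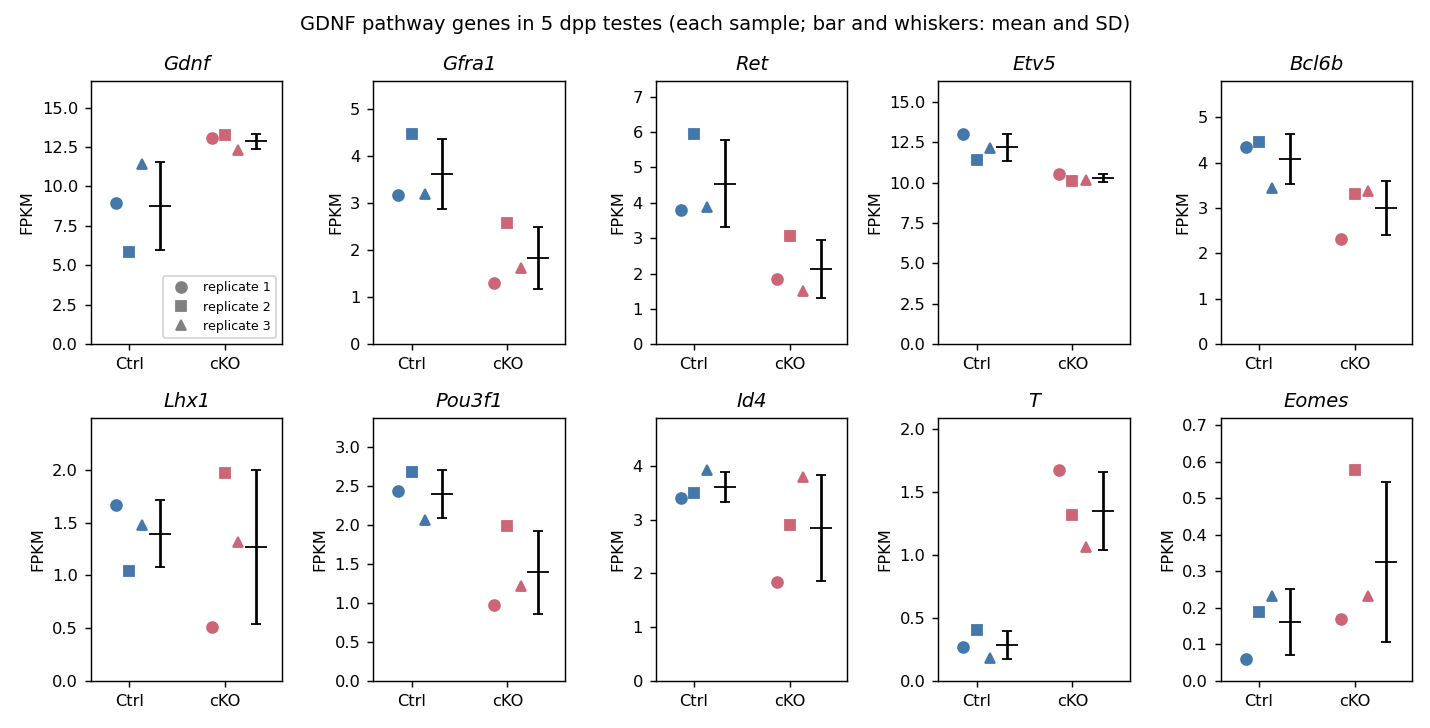
FPKM (y axis, from 0, a separate scale per gene) of the 10 genes in each of 3 Ctrl (blue) and 3 cKO (red) testes; symbols are replicates, and the bar with whiskers is the mean with SD. *Gdnf* and *T* are higher, and *Gfra1*, *Ret*, *Etv5*, *Bcl6b* and *Pou3f1* lower, in every cKO sample, while *Lhx1*, *Id4* and *Eomes* overlap.

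Over the 9 tested genes, 0 passed the adjusted threshold in either direction, as was so for 0% of all 16206 genes tested, lower or higher. At an unadjusted limma p under 0.05, 5 were lower (*Gfra1*, *Ret*, *Etv5*, *Bcl6b* and *Pou3f1*) and 2 higher (*Gdnf* and *T*). Among all genes tested 9.31% were lower and 6.6% higher at that level. The same 5 and 2 genes had no overlap between groups, against 12.8% of all genes lower and 10.3% higher. *T* entered these counts only because its cKO samples carried it past the filter of 0.5 FPKM. Its place among the higher genes is therefore not independent of the filter. The median log2 difference was -0.29 over the 9 genes and 0.0027 over all genes tested.

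**Figure D3:**
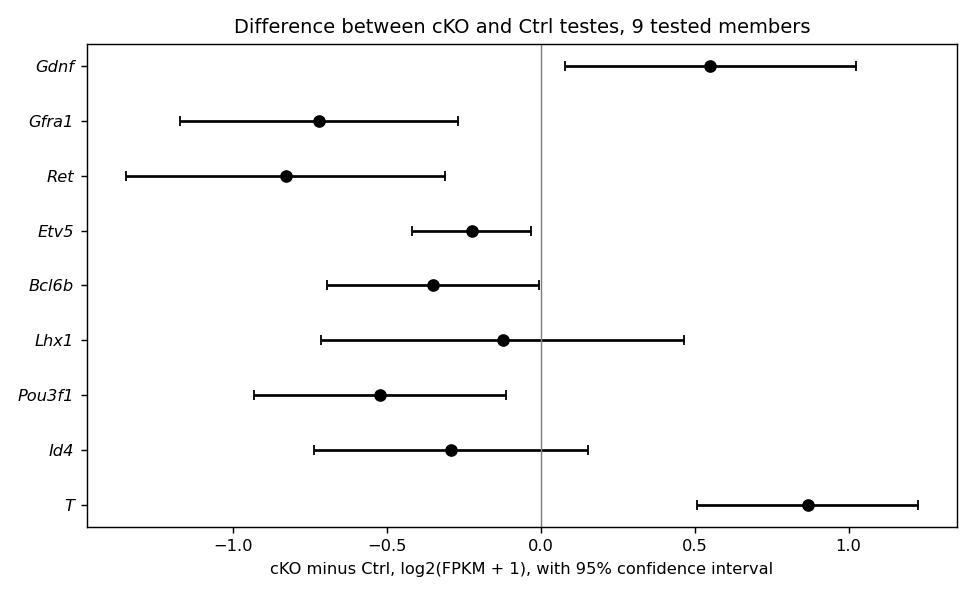
Difference between cKO and Ctrl testes in log2(FPKM + 1) (x axis) for the 9 tested genes, with points for the limma estimate and whiskers for its 95% confidence interval. The intervals of *Lhx1* and *Id4* include 0, that of *Bcl6b* ends next to it, and no gene passes the adjusted threshold.

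By level, *Etv5* (12.2 FPKM) and *Gdnf* (8.74 FPKM) led in Ctrl testes, and their ranges touched. *Ret*, *Bcl6b*, *Gfra1* and *Id4* followed between 3.60 and 4.54 FPKM on average, with overlapping ranges. *Pou3f1* (2.39 FPKM) and *Lhx1* (1.40 FPKM) stood separately below them, and *T* and *Eomes* overlapped at the bottom. In cKO testes *Gdnf* (12.9 FPKM) was above *Etv5* (10.3 FPKM) with no overlap, and *T* (1.35 FPKM) lay within the range of *Lhx1*.

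The 5 genes that were lower in every cKO sample kept more of their Ctrl level than most germ-cell markers did. The 20 markers, among them *Ddx4*, *Dazl* and *Zbtb16*, kept between 15.0% (*Mov10l1*) and 127.5% (*Utf1*) of the Ctrl mean, with a median of 26.9%. *Ret* (47.0%) and *Gfra1* (50.5%) lay above 18 of the 20 markers, and *Pou3f1*, *Bcl6b*, *Id4*, *Etv5* and *Lhx1* above 19 of them. *Gdnf*, *T* and *Eomes* lay above all 20. The marker values in Ctrl 2 were 1.95 to 4.02 times the mean of the other Ctrl samples. This ratio was lower for each of the 10 genes, at 1.82 for *T*, 1.55 for *Ret*, 1.40 for *Gfra1* and 0.904 for *Etv5*. The matching ratio of cKO 2 to the mean of cKO 1 and cKO 3 did not separate the genes from the markers. The markers stood at 0.912 to 2.25, with a median of 1.73. *Gfra1* (1.76), *Pou3f1* (1.82), *Ret* (1.83), *Lhx1* (2.15) and *Eomes* (2.87) lay above that median. *T* (0.964), *Etv5* (0.976), *Id4* (1.03), *Gdnf* (1.04) and *Bcl6b* (1.16) lay below it. The part of germ-cell content in these differences was not tested.

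**Figure D4:**
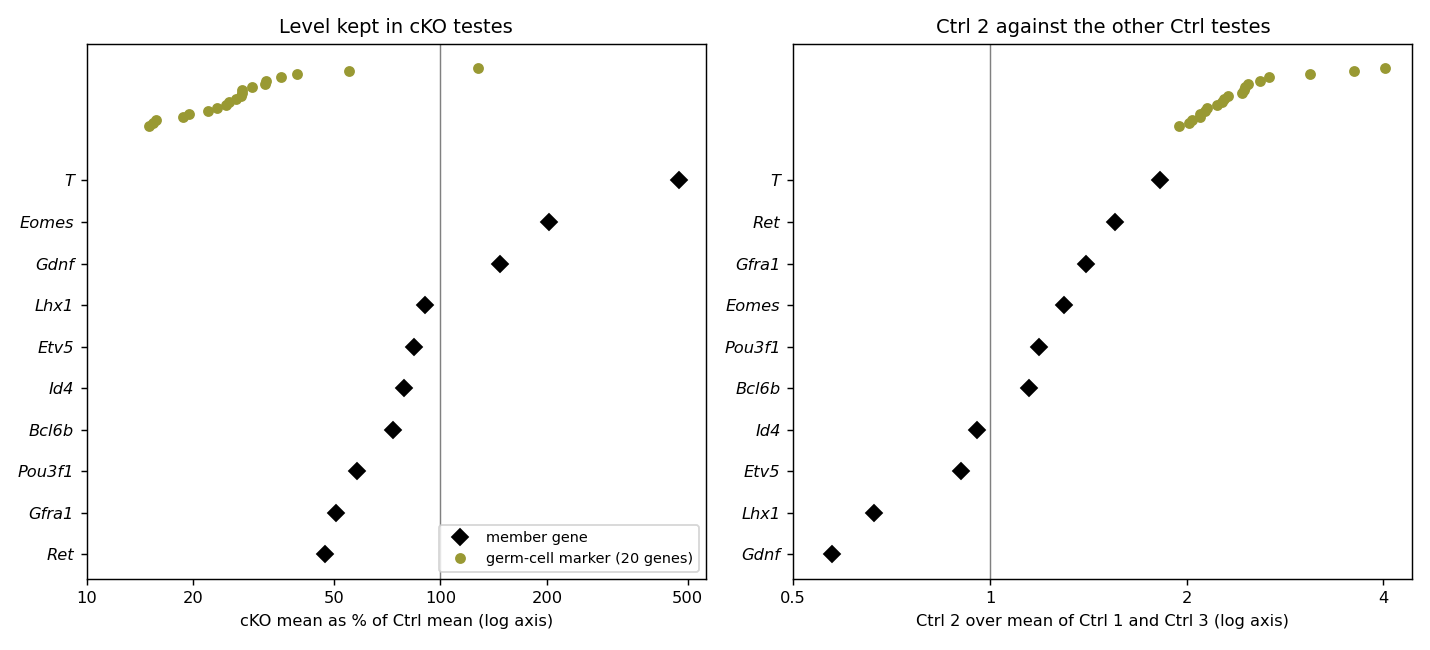
Left, cKO mean as a percentage of the Ctrl mean; right, Ctrl 2 divided by the mean of Ctrl 1 and Ctrl 3; both on log x axes, with diamonds for the 10 genes (y axis, 1 row each) and circles for 20 germ-cell markers at the top. *Ret* keeps 47.0% and *T* stands at 473%, against a marker median of 26.9%, and in the right panel every gene lies to the left of every marker.

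Genes whose values over the 6 samples were most like those of the ligand and receptors were sought among 12097 protein-coding genes averaging 1 FPKM or more, by the root mean square difference of centred log2(FPKM + 1). Closest to *Gfra1* were *Igf2bp1* (0.055), *Rffl* (0.062) and *Trim6* (0.075). *Igf2bp1* stood at 2.08, 3.08 and 2.22 FPKM in Ctrl testes and at 0.630, 1.57 and 1.08 FPKM in cKO testes. Closest to *Ret* were *Rimkla* (0.079), *Afp* (0.110) and *Nkain1* (0.116). Closest to *Gdnf* were *Hs6st1* (0.084), *Tspan15* (0.089) and *Emilin3* (0.090). *Hs6st1*, a heparan sulfate sulfotransferase, stood at 17.1, 11.7 and 18.8 FPKM in Ctrl testes and at 22.4, 24.8 and 21.0 FPKM in cKO testes, with its lowest value in Ctrl 2 as for *Gdnf*.

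Among 10 other ligands and receptors of the GDNF family, 7 were tested, 0 passed the adjusted threshold, and 2 (*Gdf15* and *Sdc3*) were higher at an unadjusted p under 0.05, a level met by 6.6% of all genes tested. *Gdf15*, a distant family member that signals through GFRAL, was at 9.52 ± 1.85 FPKM in Ctrl testes and 17.5 ± 2.94 FPKM in cKO testes, with a log2 difference of 0.81 (interval 0.43 to 1.20, limma adjusted p = 0.108). Its receptor *Gfral* was at 0 in all samples. *Sdc3*, a heparan sulfate proteoglycan that binds GDNF, was at 12.1 ± 2.26 and 17.5 ± 0.0614 FPKM (log2 difference 0.51, limma adjusted p = 0.161). Of the other ligands, *Nrtn* was at 8.32 and 8.51 FPKM and *Pspn* at 0.908 and 1.82 FPKM, with limma adjusted p of 0.928 and 0.361. *Artn*, below the filter, was at 0.356 and 0.581 FPKM with no overlap. The co-receptors *Gfra2* (2.43 and 3.42 FPKM, adjusted p = 0.409) and *Gfra4* (3.14 and 2.88 FPKM, adjusted p = 0.806) and the alternative GDNF receptor *Ncam1* (2.30 and 2.84 FPKM, adjusted p = 0.601) did not pass the limma threshold. *Gfra3*, below the filter, stood at 0.217, 1.29 and 0.393 FPKM in Ctrl testes and at 0.0319, 0 and 0.065 FPKM in cKO testes.

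Of 29 adaptors and kinases downstream of RET, 28 were tested, 0 passed the adjusted threshold, and the median log2 difference was 0.06, with the highest at 0.54 (*Dok5*). *Dok4*, an adaptor that binds RET, was at 3.72 ± 0.104 FPKM in Ctrl testes and 5.09 ± 0.511 FPKM in cKO testes (log2 difference 0.37, limma adjusted p = 0.167). The kinase gene *Akt1* was at 67.9 and 79.6 FPKM, with a limma adjusted p of 0.340.

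Of 14 other genes that respond to GDNF or FGF, 13 were tested and 0 passed the adjusted threshold. *Etv4*, the close relative of *Etv5*, stood at 6.37, 6.29 and 6.72 FPKM in Ctrl testes and at 2.76, 3.59 and 3.86 FPKM in cKO testes, with tight and widely separated groups. Its log2 difference was -0.77 (interval -1.04 to -0.49, limma adjusted p = 0.0864), and it passed with protein-coding genes only (limma adjusted p = 0.025). *Gdf15* passed there too, at 0.0458. The feedback inhibitors *Dusp6* (29.1 and 31.7 FPKM) and *Spry4* (3.49 and 4.08 FPKM) had limma adjusted p of 0.616 and 0.552. *Nanos2*, a translational regulator of stem cells that lay below the filter, stood at 0.553, 0.840 and 0.116 FPKM in Ctrl testes and at 0.0407, 0.0383 and 0.0828 FPKM in cKO testes. Of 9 relatives of the regulators, 5 were tested and 0 passed, and *Id1* was at 50.8 and 62.6 FPKM, *Id2* at 26.6 and 29.8 FPKM and *Id3* at 59.9 and 70.0 FPKM, far above *Id4*. Over all 4 lists, 39 of the 53 tested genes had a positive log2 difference, with a median of 0.12, beside 8180 of 16206 and a median of 0.0027 over all genes tested.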

How the data were processed

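The submitters' processing notes name HISAT2 2.0.5 as aligner, and according to the study's methods reads were counted per gene with featureCounts. The authors deposited FPKM values for each gene and sample, with gene lengths and GRCm38 coordinates. FPKM multiplied by gene length and divided by 1 step per sample, estimated from the lowest values, was within 0.01 of a whole number for 100% of values above 0, so reads could be recovered. A gene of 1 kb with 3 reads is listed at 0.158 to 0.194 FPKM, and such floors cover counting error only.

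The 16206 genes averaging 0.5 FPKM or more were tested on log2(FPKM + 1) with limma 3.58.1 in R 4.3.3, with a mean-variance trend, two-sided p and Benjamini-Hochberg adjustment over all of them, at a threshold of 0.05. Groups came from sample titles. The study's methods call the 3 samples of a group biological replicates. Single values per sample were compared by exact permutation.

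The members and gene lists were chosen with earlier results of these data known. Beyond the members, all genes of the GDNF family list were named. From each other list, those with an unadjusted p under 0.05, a mean of at least 1 FPKM and no overlap between groups were named, and any further gene was chosen after its values were seen. The marker lists held 20 germ-cell, 12 Sertoli, 6 peritubular myoid, 6 Leydig, 8 endothelial, 6 macrophage, 5 lymphocyte, 5 Schwann and neural and 6 retinal genes. Alternatives were other pseudocounts, filters and scalings, voom on recovered reads, protein-coding genes only, a replicate block and leaving out each sample. The fit was tested on simulated data with set differences larger than those of most members and with no outlying sample. That test therefore does not show how well differences of the members' size are found. Some genes of the lists are not reported here by name.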

Additional observations from a re-analysis of the deposited data

How the results depend on the processing

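Over 14 alternatives, 123 of 125 log2 differences of the members kept their direction and their side of the adjusted threshold. The exceptions were *T* (0.87), which passed with protein-coding genes only, where fewer genes were tested, and *Lhx1*, which turned to 0.14 without cKO 1 and was -0.35 without cKO 2 (the cause was not tested). Thus 1 member (*T*, which reached the filter only through its cKO samples) was called higher and 0 lower with protein-coding genes only. Under every other alternative 0 were called. Over all genes, limma called 0 lower and 0 higher, against 1508 and 1069 at an unadjusted p under 0.05. It called 1 lower and 4 higher with TPM, 176 and 37 with protein-coding genes only, and 61 and 22 with voom on recovered reads. Leaving out 1 sample gave 0 to 15 lower and 0 to 3 higher, with 15 and 3 without Ctrl 2 and 2 and 3 without Ctrl 3. Of the pathway genes, 2 (*Gdf15* and *Etv4*) were called with protein-coding genes only and 1 (*Etv4*) with voom. The cause of these shifts in number was not tested. The adjusted p of *T* ranged from 0.0275 to 0.313 over its alternatives, that of *Ret* from 0.057 to 0.402, that of *Gfra1* from 0.0744 to 0.402 and that of *Gdnf* from 0.15 to 0.484. The germ-cell marker share was 19.99% to 35.4% when 1 sample was left out. At 7 to 61 reads for *T* and 4 to 40 for *Eomes*, depth limits both.

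With the replicate number as a block, 84 genes were lower and 14 higher, and *T* had an adjusted p of 0.102. Same-numbered Ctrl and cKO samples correlated by 0.016 to 0.088 in their deviations, and 5 of the 6 samples correlated best with their own number. These correlations were small, and the sources used here do not say whether the numbers pair the samples. The main fit therefore left the numbers out, and a pairing was not excluded. The block changed no call of a member.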

Other observations

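The genes most like *T* over the 6 samples, a search chosen after its values were seen, were *Krt8* (root mean square difference 0.105), *Zfyve28* (0.108) and *Myoc* (0.113) among 12098 protein-coding genes. *Krt8*, a keratin of simple epithelia, stood at 12.2, 15.0 and 12.5 FPKM in Ctrl testes and at 28.4, 22.2 and 18.2 FPKM in cKO testes, and as for *T* cKO 1 was the highest and cKO 3 the lowest of the cKO samples. Leydig-cell markers summed to 134.4% of Ctrl in cKO testes (exact permutation p = 0.1) and macrophage markers to 105.6% (exact permutation p = 0.7). *Hsd3b1* made up 223.1 of the mean 461.9 FPKM of the Leydig sum in Ctrl testes. Without overlap, *Cyp11a1* (147% of Ctrl), *Insl3* (170%) and *Lhcgr* (143%) were higher, while the other Leydig markers, *Hsd3b1* among them, overlapped.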
